A study of Caenorhabditis elegans with 24 samples.

Results

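The small heat shock protein genes described here are 10 named genes of Caenorhabditis elegans that encode chaperones of the alpha-crystallin type. They are hsp-16.1, hsp-16.11, hsp-16.2, hsp-16.41, hsp-16.48 and hsp-16.49, which form the stress-inducible HSP16 group, and sip-1, hsp-12.3, hsp-12.6 and hsp-43. They are part of a larger family, of which further members are described below. The 10 genes were chosen by name, with earlier results of these data known, so their counts beside the shares of all features are descriptive. All 10 were found among the 46739 features of the table. Their RNA was measured in whole worms of the wild-type strain N2, kept at 25 °C and fed RNAi to silence cdc-25.1, whose product is a phosphatase of the cell cycle, a treatment given for sterility that every group shared, controls included. On the first day of adulthood, injured worms were shaken at 8600 rpm for 16 s to deliver blunt force trauma, and control worms were handled alike without shaking. Poly(A) RNA was sequenced from injured and control worms at 8, 48 and 96 h, with 4 libraries in each of the 6 groups. Values are RPKM, reads per unit of exon length and of mapped depth, so levels of different genes are compared per length. The labels call the libraries of a group biological replicates and a legend of the study calls them independent, but how the cultures were separated is not given in the sources used here. The p-values measure the spread between these libraries. The labels and the study's list of data name N2, whereas that legend names CF512, a strain made sterile by temperature, for RNA sequencing at the same times. N2 was taken from the labels, and the strain cannot be settled from these values. The study's methods describe the cdc-25.1 RNAi for strains that lack temperature-sensitive mutations. It is stated here for N2 and is no more settled than the strain. In RNA from whole worms, fewer cells of a type and less RNA per cell cannot be told apart.

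Small heat shock proteins carry an alpha-crystallin domain, assemble into oligomers and hold unfolding proteins in a soluble state without using ATP, until chaperones of the HSP70 class refold them. In C. elegans the HSP16 genes are nearly silent in unstressed worms, are switched on by heat and other proteotoxic stress through the transcription factor HSF-1, and are also raised by DAF-16, the FOXO factor of insulin signalling, in long-lived mutants. The other members behave differently: SIP-1 is a chaperone of oocytes and embryos, HSP-12.6 is a short form under DAF-16 control, HSP-12.3 is a short form that heat does not induce, and HSP-43 is a longer form seen in body wall muscle that heat does not induce either.

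All 6 HSP16 genes lie on chromosome V of the ce11 assembly, as divergent pairs that share the stretch between their starts. At one locus hsp-16.1 (chrV:9087293-9087782, minus strand) and hsp-16.48 (chrV:9088131-9088617, plus strand) stand 348 bases apart, and an inverted copy of the pair, hsp-16.11 (chrV:9090077-9090604, plus strand) for hsp-16.1 and hsp-16.49 (chrV:9089280-9089766, minus strand) for hsp-16.48, has 310 bases between its genes. The second locus, nearer the left end of the chromosome, holds hsp-16.2 (chrV:1804334-1804957, minus strand) and hsp-16.41 (chrV:1805178-1805875, plus strand), 220 bases apart. Each HSP16 gene has 2 exons. Of the other members, hsp-12.3 (chrIV:9444791-9445507) and hsp-12.6 (chrIV:9446229-9447228) are neighbours on the minus strand with 721 bases between them, sip-1 (chrIII:10506106-10506801, minus strand) overlaps F43D9.8 on the plus strand, and hsp-43 (chrX:6233151-6235543, minus strand) has 7 exons. The strand setting of the read counting is not given in the sources used here, so reads of sip-1 and F43D9.8 cannot be told apart.

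Near-identical copies can share reads, and the values of the 2 copy pairs differed in kind. hsp-16.48 and hsp-16.49 had nearly equal values in each library, with a ratio between 0.963 and 1.10 over the 24 libraries. hsp-16.1, in contrast, was listed at 0 in 15 libraries and reached 0.82 RPKM at most, about 9 reads, while its copy hsp-16.11 was the highest HSP16 gene in 24 of 24 libraries. Which copy a read came from cannot be told here, so hsp-16.11 may carry reads of hsp-16.1, and the values of hsp-16.48 and hsp-16.49 are not independent of each other. hsp-16.1 was too low for the fit across genes, which took features with at least 1 RPKM in at least 4 libraries, so that 9 of the 10 members were tested. In an exact two-sided permutation test of its log2(RPKM + 0.5), hsp-16.1 gave p = 0.429 at 8 h, p = 1.0 at 48 h and p = 0.0857 at 96 h, where the smallest p that 4 libraries against 4 allow is 0.0286. It had 0.46, 0.57, 0.28 and 0.82 RPKM in injured worms at 96 h, against 0, 0, 0.52 and 0 in the controls.

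Depth, estimated from the steps between low values, was 19537500 to 30162500 mapped reads in 23 libraries and could not be recovered for control 48 h library 4 (library numbers are column order within a group and are names only). Ribosomal RNA took 48.5% of the reads of that library, 5.57% and 8.73% in injured 8 h libraries 2 and 4, 9.09% in control 48 h library 2, and 0.736 to 3.33% in the other 20. At 48 h the median log2 difference between injured and control worms over all 14813 features tested was 0.48, and it was 0.02 after scaling each library by its median ratio. None of the 10 oocyte and germline, 8 body wall muscle or 7 intestine markers was at 0 in every library of a group. They moved between groups: the summed RPKM of the germline markers was 1441 to 2711 in injured worms and 259 to 513 in controls at 96 h, and that of the intestine markers was 507 to 1097 in injured worms and 2404 to 2938 in controls.

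At 8 h after injury, 8 of the 9 tested members were higher than in controls and none was lower, where 11.0% of all features tested were higher and 11.4% lower. The 5 tested HSP16 genes rose most, 8.62- to 11.3-fold on the log2(RPKM + 0.5) scale. hsp-16.11, whose protein is the same as that of hsp-16.1, had 1739, 978, 1314 and 828 RPKM in injured worms, against 124, 114, 112 and 143 in controls (log2 difference 3.24 ± 0.25, limma adjusted p = 2.81e-12). hsp-16.41 had 269, 173, 245 and 279 RPKM in injured worms, against 19.4, 18.4, 17.8 and 28.6 in controls (log2 difference 3.49 ± 0.26, limma adjusted p = 5.98e-12). The lowest injured library was several times above the highest control for both genes. hsp-16.2, the gene whose promoter is widely used as a stress reporter, had 287, 119.8, 235.08 and 286 RPKM in injured worms, against 25.9, 21.2, 20.0 and 27.7 in controls (log2 difference 3.20 ± 0.29, limma adjusted p = 1.02e-09). hsp-16.49 had 916, 557, 825 and 481 RPKM in injured worms, against 77.6, 70.1, 58.3 and 102 in controls, with log2 differences of 3.14 for it and 3.11 for hsp-16.48. No injured library overlapped a control for any of these genes. The 4 injured libraries differed among themselves: library 2 was the lowest for hsp-16.2 and hsp-16.41, and library 4 was the lowest for hsp-16.11 and hsp-16.49 while it had the highest hsp-16.41. Over the features tested, library 2 had a median log2 shift of -0.47 from each feature's median across libraries, and library 4 had 0.01. Without the 4 libraries over 5% ribosomal RNA, both of these included, the log2 difference was 3.62 for hsp-16.11 and 3.61 for hsp-16.41.

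**Figure D1:**
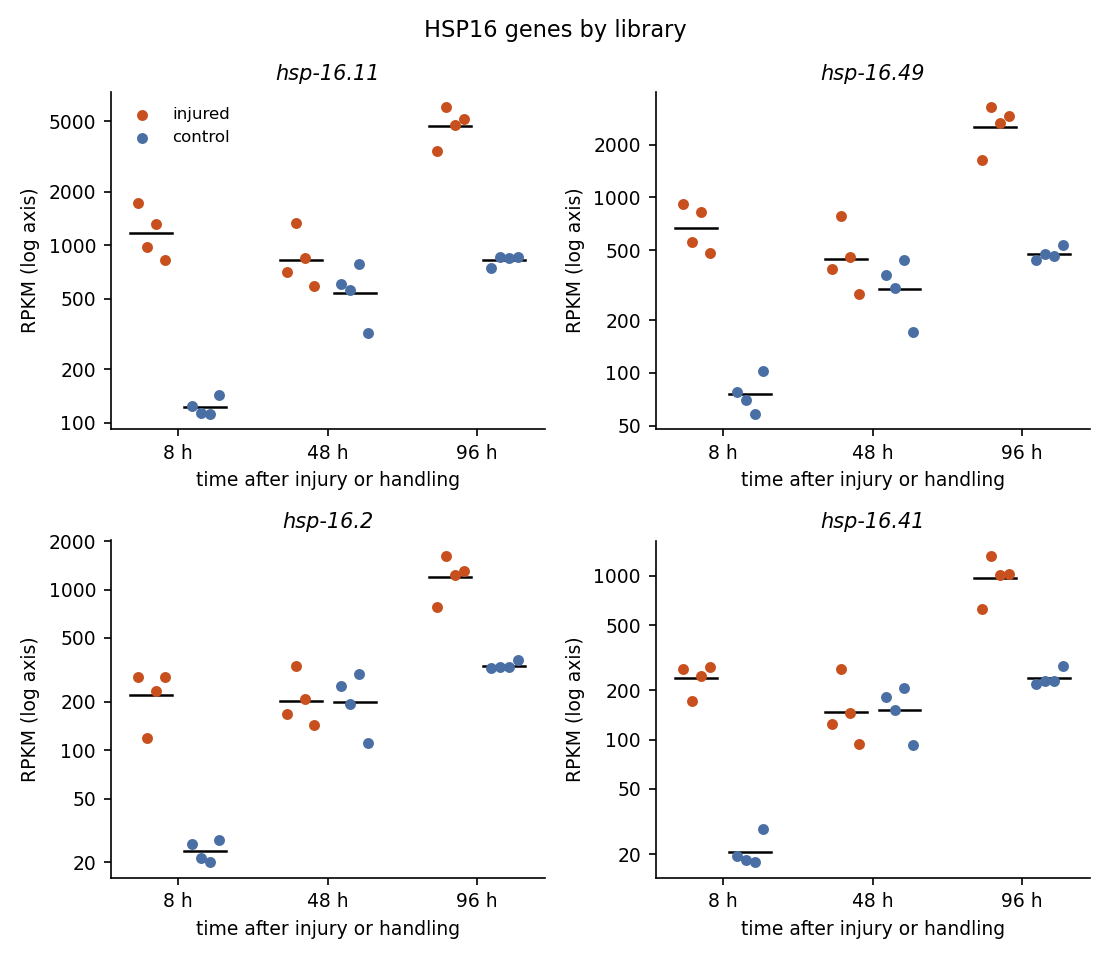
RPKM of 4 HSP16 genes on a log axis at 8, 48 and 96 h, with each point 1 library (injured in orange, left, and control in blue, right) and each bar the mean of the 4 log values. The injured libraries lie above all controls of the same time at 8 h and 96 h and overlap them at 48 h, while the controls at 48 h and 96 h lie above those at 8 h.

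The uninjured worms did not stay at the 8 h level, and the 8 h controls enter both these changes and the 8 h injury comparison. By 48 h the 5 tested HSP16 genes were higher in controls than at 8 h, by 3.89- to 8.36-fold, and by 96 h the rise was 6.18- to 14-fold. hsp-16.2 averaged 23.7 ± 3.72 RPKM at 8 h, 213 ± 79.8 at 48 h and 336 ± 18.4 at 96 h (SD, n = 4 each; 96 h minus 8 h, log2 difference 3.81 ± 0.29, limma adjusted p = 3.03e-12). hsp-16.11 averaged 123 ± 14.4, 568 ± 192 and 829.8 ± 54.7 RPKM at these times (log2 difference 2.75 ± 0.25, limma adjusted p = 1.60e-11). The 96 h controls were tight: hsp-16.2 was 323, 328, 329.7 and 363 RPKM in them, all above every 8 h injured library, and hsp-16.41 was 220.0, 229.6, 228 and 281, overlapping the 8 h injured libraries. Of the 9 tested members, 5 were higher and 1 lower in controls at 48 h than at 8 h (all features, 18.8% higher and 30.0% lower), and 7 were higher and 1 lower at 96 h (all features, 36.2% and 26.0%). In the main fit the 5 that were higher at 48 h were the HSP16 genes. At 96 h hsp-12.6 and hsp-43 joined them, and sip-1 was the 1 that was lower at both times. Without the libraries over 5% ribosomal RNA, hsp-12.6 and hsp-43 also passed at 48 h (1.47 and 0.48, limma adjusted p = 0.00179 and 0.00124). They passed with array weights too (1.40 and 0.46, limma adjusted p = 2.56e-04 and 0.00128). After scaling hsp-12.6 passed (1.00, limma adjusted p = 0.0222) and hsp-43 did not (0.30, 0.144).

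At 48 h the HSP16 ranges of injured and control worms overlapped. hsp-16.2 had 167, 335, 209.6 and 143 RPKM in injured worms, against 252, 193, 296 and 111 in controls (log2 difference 0.02 ± 0.29, limma adjusted p = 0.966). hsp-16.41 had 125, 271, 146 and 94.2 RPKM in injured worms, against 183, 151, 208 and 93.0 in controls (log2 difference -0.05 ± 0.26, limma adjusted p = 0.884). These ranges overlapped almost wholly. hsp-16.11 had 705, 1337, 853 and 591 RPKM in injured worms, against 606, 557, 788 and 322 in controls (log2 difference 0.62 ± 0.25, limma adjusted p = 0.0319), a difference close to the 0.48 median shift of all features. After median-ratio scaling it was 0.09 (limma adjusted p = 0.748), and the call was also lost without control 48 h library 4 (0.37, adjusted p = 0.200), injured 48 h library 2 (0.39, 0.189) or injured 48 h library 3 (0.61, 0.0610). The same scaling put hsp-16.2 and hsp-16.41 lower in injured worms, with log2 differences of -0.51 (limma adjusted p = 0.0489) and -0.58 (limma adjusted p = 0.0337). hsp-16.48 and hsp-16.49 differed by 0.58 and 0.56 (limma adjusted p = 0.0733 and 0.0907). Both passed the threshold without control 48 h library 3 (0.76 and 0.74) or injured 48 h library 4 (0.78 and 0.78). In all, 4 of the 9 tested members were called higher at 48 h (hsp-16.11, hsp-12.3, hsp-12.6 and sip-1) and none lower, where 45.8% of all features were higher and 10.2% lower. Without the libraries over 5% ribosomal RNA 2 were higher, and after scaling 2 were higher and 2 lower.

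At 96 h the HSP16 genes were again higher in injured worms, above controls that had themselves risen. hsp-16.11 had 3412, 5993, 4743 and 5164 RPKM in injured worms, against 749, 862, 846 and 863 in controls (log2 difference 2.51 ± 0.25, limma adjusted p = 1.89e-10). It ranked 1 to 7 among all features of the table in the injured 96 h libraries, and 126 to 172 in the controls. hsp-16.49 had 1637, 3265, 2649 and 2906 RPKM in injured worms, against 441, 477, 464 and 539 in controls (log2 difference 2.40 ± 0.28, limma adjusted p = 2.37e-08). hsp-16.2 had 779, 1622, 1231 and 1297 RPKM in injured worms, against 323, 328, 329.7 and 363 in controls (log2 difference 1.83 ± 0.29, limma adjusted p = 2.92e-06). hsp-16.41 had 630.4, 1326, 1012 and 1024 RPKM in injured worms, against 220.0, 229.6, 228 and 281 in controls (log2 difference 2.01 ± 0.26, limma adjusted p = 9.34e-08). No library of injured worms overlapped a control, and library 1 was the lowest of the injured libraries for each of these genes. Summed over the 6 HSP16 genes, the level was 3072 ± 865 RPKM in injured worms and 323 ± 57.1 in controls at 8 h, 2199 ± 916 and 1576 ± 546 at 48 h, and 12292 ± 3110.2 and 2363 ± 168 at 96 h (SD, n = 4 each). The change between times within the injured worms was not tested. Of the 9 tested members, 8 were higher at 96 h and 1, hsp-43, was lower, where 32.8% of all features were higher and 28.4% lower.

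The test of the difference between times bears on whether the injury effect itself changed. Between 8 and 48 h it became smaller for the 5 tested HSP16 genes, with changes on the log2 scale between -2.53 for hsp-16.48 and -3.54 for hsp-16.41 (limma adjusted p = 1.89e-05 and 8.93e-08). Without the libraries over 5% ribosomal RNA these changes were -3.31 and -4.01, and after scaling they were -3.13 and -4.14. Between 8 and 96 h it became smaller at the hsp-16.2 locus, with changes of -1.37 ± 0.40 for hsp-16.2 (limma adjusted p = 0.00757) and -1.48 ± 0.37 for hsp-16.41 (limma adjusted p = 0.00204). For hsp-16.11 the same change was -0.73 ± 0.35 (limma adjusted p = 0.0866), for hsp-16.48 -0.70 and for hsp-16.49 -0.74 (limma adjusted p = 0.144 and 0.129). hsp-16.11 passed the threshold without injured 8 h library 4 (-0.90, adjusted p = 0.0328), and without the libraries over 5% ribosomal RNA it gave -1.11, hsp-16.48 -1.07 and hsp-16.49 -1.12, all past it. For 48 h against 8 h, 1 of the 9 tested members had a larger injury effect and 6 a smaller one (all features, 31.6% and 5.29%). For 96 h against 8 h, 2 were larger and 3 smaller (all features, 23.6% and 20.1%).

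**Figure D2:**
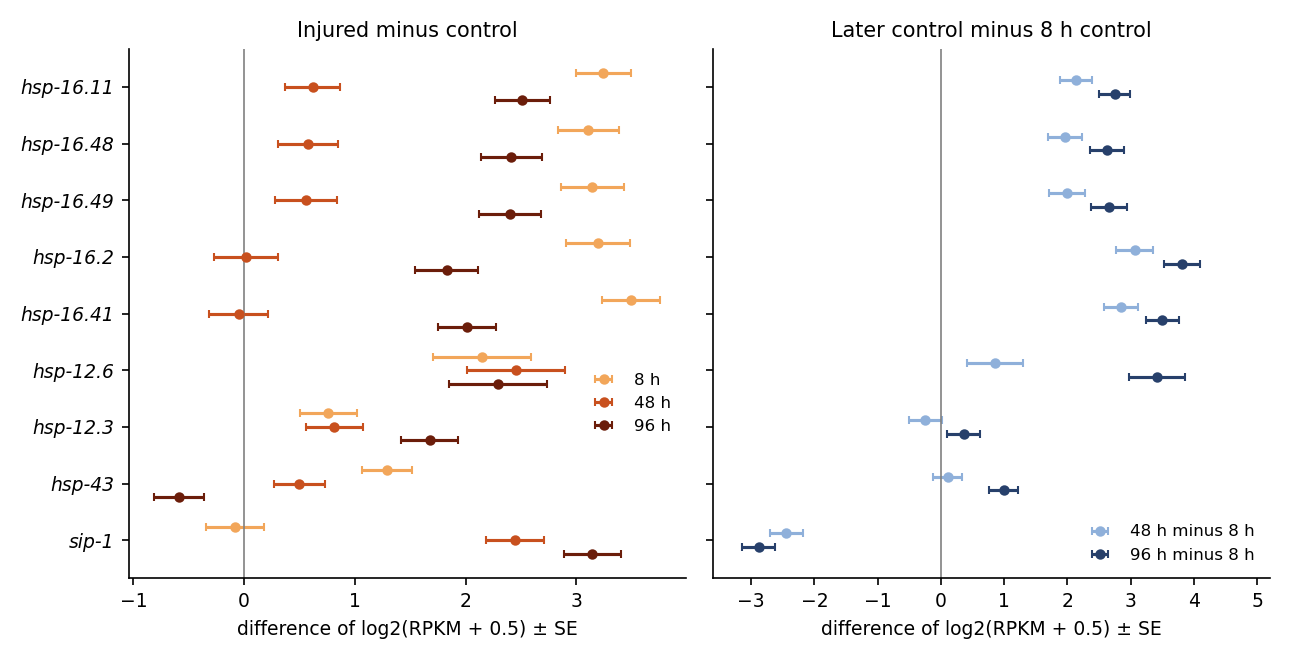
Differences of log2(RPKM + 0.5) for the 9 tested members, injured minus control at 8, 48 and 96 h (left) and control worms at 48 or 96 h minus those at 8 h (right), with points for the fitted value and bars for its standard error. For hsp-16.11 the injury difference is 3.24 at 8 h, 0.62 at 48 h and 2.51 at 96 h, while for sip-1 it is -0.08 at 8 h and 3.14 at 96 h.

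The 2 HSP16 loci took different shares of the HSP16 level in different groups. hsp-16.2 and hsp-16.41 together made up 15.9 ± 5.39% of the summed HSP16 RPKM in injured worms at 8 h and 13.8 ± 0.292% in controls, 16.8 ± 0.354% and 23.6 ± 0.849% at 48 h, and 18.04 ± 0.748% and 24.4 ± 0.768% at 96 h (SD, n = 4 each). This share is a ratio within a library, so depth and scaling cancel. By library it was 16.43, 17.3, 16.8 and 16.9% in injured worms at 48 h, against 24.8, 22.9, 23.2 and 23.5% in controls, including library 4 with its high ribosomal RNA. It was 17.4, 18.99, 18.3 and 17.5% in injured worms at 96 h, against 25.0, 23.5, 23.9 and 25.0% in controls. At both later times every injured library was below every control, and every control was above the 8 h controls, which had 14.1, 13.4, 13.9 and 13.99%. At 8 h injured libraries 1, 2 and 3 had 13.5, 12.4 and 13.96%, near the controls, and library 4 had 23.96%. The share was looked at after the values were seen, and no test is given for it. The fitted rise of the controls between 8 and 96 h was 3.81 ± 0.29 for hsp-16.2 and 3.50 ± 0.26 for hsp-16.41, against 2.75 ± 0.25 for hsp-16.11 and 2.63 ± 0.27 for hsp-16.48. These rises come from the same values as the share and are not separate support for it.

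**Figure D3:**
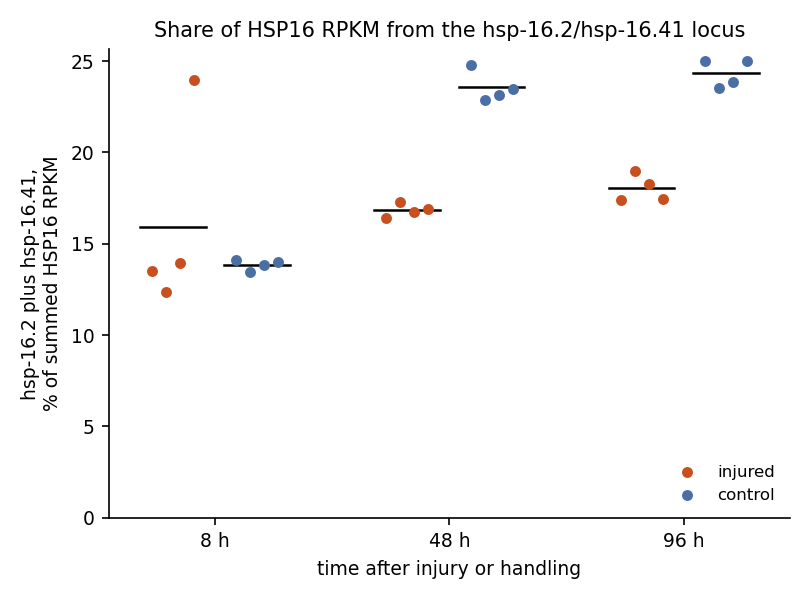
Share of the summed RPKM of the 6 HSP16 genes that came from hsp-16.2 and hsp-16.41, in percent, with each point 1 library (injured in orange, left, and control in blue, right) and each bar the mean of 4. At 48 and 96 h the injured libraries lie between 16.43 and 18.99% and the controls between 22.9 and 25.0%, and at 8 h only injured library 4 stands apart.

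hsp-12.6 encodes a short form with little beyond the alpha-crystallin domain and is a known target of DAF-16. It was the lowest tested member in controls at 8 h, with 12.8, 3.44, 13.4 and 3.27 RPKM in injured worms at 8 h, against 2.26, 1.33, 0.790 and 0.600 in controls (log2 difference 2.15 ± 0.44, limma adjusted p = 0.00103). At 48 h it had 12, 32.7, 16.46 and 9.25 RPKM in injured worms, against 4.30, 1.76, 3.77 and 1.16 in controls (log2 difference 2.45 ± 0.44, limma adjusted p = 8.11e-05). At 96 h it had 94.6, 82.5, 92.9 and 70.5 RPKM in injured worms, against 15.8, 16.0, 15.4 and 20.9 in controls (log2 difference 2.29 ± 0.44, limma adjusted p = 1.44e-04). The groups did not overlap at any time, and the differences of the injury effect were 0.31 ± 0.63 for 48 against 8 h and 0.14 ± 0.63 for 96 against 8 h (limma adjusted p = 0.734 and 0.870). At 8 h the injured libraries split into 1 and 3 with 12.8 and 13.4 RPKM and 2 and 4, those over 5% ribosomal RNA, with 3.44 and 3.27. Without the libraries over 5% ribosomal RNA the 8 h difference was 3.05 and the 48 h difference 1.84. Both still passed the threshold. With array weights the 8 h difference was 2.77. In controls hsp-12.6 changed by 0.86 between 8 and 48 h (limma adjusted p = 0.116; without control 48 h library 4, 1.13, adjusted p = 0.0296) and rose by 3.41 between 8 and 96 h (limma adjusted p = 1.15e-06).

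hsp-12.3, the neighbour of hsp-12.6 and also a short form, changed less. It had 24.8, 20.8, 35.0 and 23.3 RPKM in injured worms at 8 h, against 14.5, 13.4, 11.4 and 21.7 in controls (log2 difference 0.76 ± 0.26, limma adjusted p = 0.0279), with control library 4 inside the injured range. This call was lost when any of control 8 h libraries 1, 2 and 3 or injured 8 h libraries 1 and 3 was left out, with adjusted p between 0.0527 and 0.123. At 48 h it had 20.0, 35.4, 22.9 and 15 RPKM in injured worms, against 12.9, 13.8, 20.7 and 6.39 in controls (log2 difference 0.82 ± 0.26, limma adjusted p = 0.00721). The ranges overlapped, and the call was lost after scaling (0.30, adjusted p = 0.189), without control 48 h library 4 (0.51, 0.0691) and without injured 48 h library 2 (0.60, 0.0560). It was also lost without the libraries over 5% ribosomal RNA (0.43, adjusted p = 0.177). At 96 h the genes of this pair both stood clear of controls, and hsp-12.3 had 55.6, 65.6, 65.5 and 63.3 RPKM in injured worms, against 16.6, 18.7, 20.0 and 21.6 in controls (log2 difference 1.68 ± 0.26, limma adjusted p = 9.12e-07). Its injury effect was larger at 96 h than at 8 h by 0.92 ± 0.36 (limma adjusted p = 0.0394), a call lost in 11 of the 24 fits that left out 1 library. That call was also lost without the libraries over 5% ribosomal RNA (0.71, adjusted p = 0.0858), with array weights (0.57, 0.0509) and without the filter (0.92, 0.0741). In controls hsp-12.3 changed by 0.36 between 8 and 96 h (limma adjusted p = 0.226).

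hsp-43 was the 1 member whose injury difference turned from higher to lower. It had 681, 431, 604 and 295 RPKM in injured worms at 8 h, against 191, 186, 195 and 211 in controls (log2 difference 1.29 ± 0.23, limma adjusted p = 3.75e-05). At 48 h it had 266, 335, 294 and 301 RPKM in injured worms, against 277, 221, 270.3 and 118 in controls (log2 difference 0.50 ± 0.23, limma adjusted p = 0.0576). This difference became -0.03 after scaling. It was 0.12 without the libraries over 5% ribosomal RNA and 0.13 with array weights (limma adjusted p = 0.369 and 0.238). It passed the threshold without control 48 h library 1 (0.63), control 48 h library 3 (0.62) or injured 8 h libraries 2 or 4 (0.50 each, through the shared spread). At 96 h hsp-43 had 245, 301, 271 and 227 RPKM in injured worms, against 405, 369, 409 and 375 in controls (log2 difference -0.59 ± 0.23, limma adjusted p = 0.0241). The 8 h and 96 h groups did not overlap, in opposite directions, and the injury effect at 96 h minus that at 8 h was -1.87 ± 0.32 (limma adjusted p = 2.08e-05). The 96 h call was lost without control 96 h library 1 or 3 or injured 96 h library 1 or 4, with adjusted p up to 0.0686. The difference for 48 against 8 h, -0.79 (limma adjusted p = 0.0498), was lost in 19 of the 24 fits that left out 1 library. It was -1.59 (limma adjusted p = 1.43e-06) without the 4 libraries over 5% ribosomal RNA, -1.38 (2.05e-04) after scaling and -1.38 (4.76e-07) with array weights. In controls hsp-43 rose between 8 and 96 h by 0.99 ± 0.23 (limma adjusted p = 2.85e-04). The 8 body wall muscle markers had a summed RPKM of 605 to 1465 in injured worms and 601 to 750.1 in controls at 8 h, and 358 to 548 and 492 to 563 at 96 h. Of these markers, 5 of 8 were higher at 8 h (all features, 11.0%). At 96 h 1 of the markers was higher and 1 lower (all features, 32.8% and 28.4%). Their part in the hsp-43 result was not tested.

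**Figure D4:**
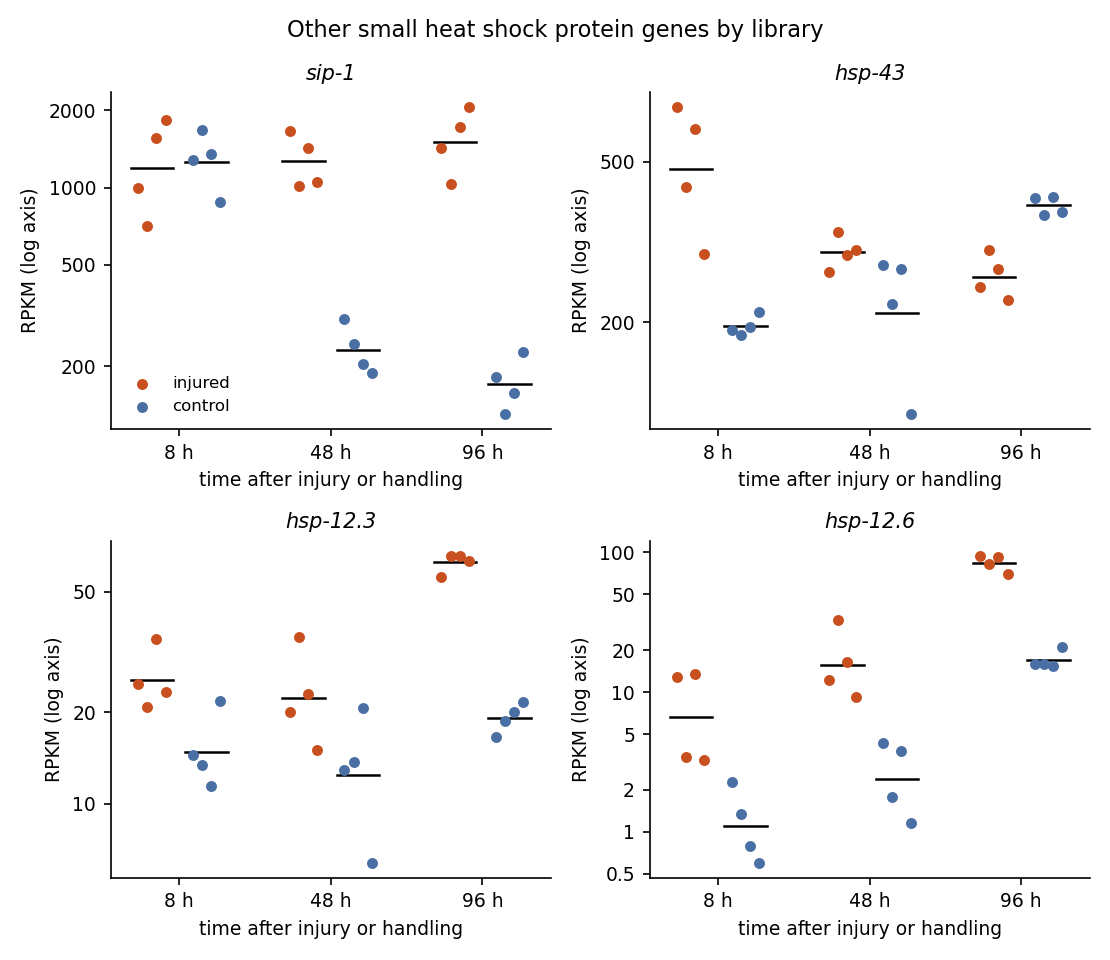
RPKM of sip-1, hsp-43, hsp-12.3 and hsp-12.6 on log axes of different ranges at 8, 48 and 96 h, with each point 1 library (injured in orange, left, and control in blue, right) and each bar the mean of the 4 log values. sip-1 stays near its 8 h level in injured worms and falls in controls, hsp-43 is higher in injured worms at 8 h and lower at 96 h, and hsp-12.6 is higher in injured worms at each time.

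sip-1, the small heat shock protein of oocytes and embryos, kept overlapping ranges across the 3 times in injured worms and was lower in the later controls. At 8 h it had 999.8, 708, 1566 and 1830.3 RPKM in injured worms, against 1283, 1671, 1346 and 879.7 in controls (log2 difference -0.08 ± 0.26, limma adjusted p = 0.879), with wide and overlapping ranges. At 48 h it had 1667, 1016, 1429.9 and 1055 RPKM in injured worms, against 306, 244, 205 and 188 in controls (log2 difference 2.44 ± 0.26, limma adjusted p = 3.71e-09). At 96 h it had 1424, 1036, 1722 and 2057 RPKM in injured worms, against 181, 130.3, 158 and 228 in controls (log2 difference 3.14 ± 0.26, limma adjusted p = 9.91e-12). Between 8 and 96 h sip-1 in controls changed by -2.88 ± 0.26 on the log2 scale (limma adjusted p = 3.36e-11), while the mean in injured worms was 1276 ± 513 RPKM at 8 h, 1292 ± 312 at 48 h and 1559.8 ± 435 at 96 h. The injury effect was larger by 2.53 ± 0.37 at 48 h and by 3.22 ± 0.37 at 96 h than at 8 h (limma adjusted p = 8.72e-06 and 8.62e-08), the first of which was 1.93 after scaling. The 10 oocyte and germline markers moved the same way. None passed the test at 8 h, where 11.0% of all features were higher and 11.4% lower. At both later times 10 of 10 were higher in injured worms (all features, 45.8% at 48 h and 32.8% at 96 h). In controls 10 of 10 of these markers fell by 48 h and by 96 h (all features, 30.0% and 26.0% lower). Their summed RPKM was 1830.1 to 2727 in injured worms and 1575 to 2539 in controls at 8 h, 1478 to 2887 and 401 to 627 at 48 h, and 1441 to 2711 and 259 to 513 at 96 h. Divided by that sum, sip-1 was 0.530 ± 0.174 in injured worms and 0.612 ± 0.0651 in controls at 8 h, 0.586 ± 0.0837 and 0.467 ± 0.0400 at 48 h, and 0.704 ± 0.0618 and 0.462 ± 0.0277 at 96 h (SD, n = 4 each). The ranges of this ratio overlapped at 8 and 48 h. At 96 h they did not, with 0.616 to 0.759 in injured worms and 0.444 to 0.503 in controls. The part of germline content in the sip-1 result was not tested.

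**Figure D5:**
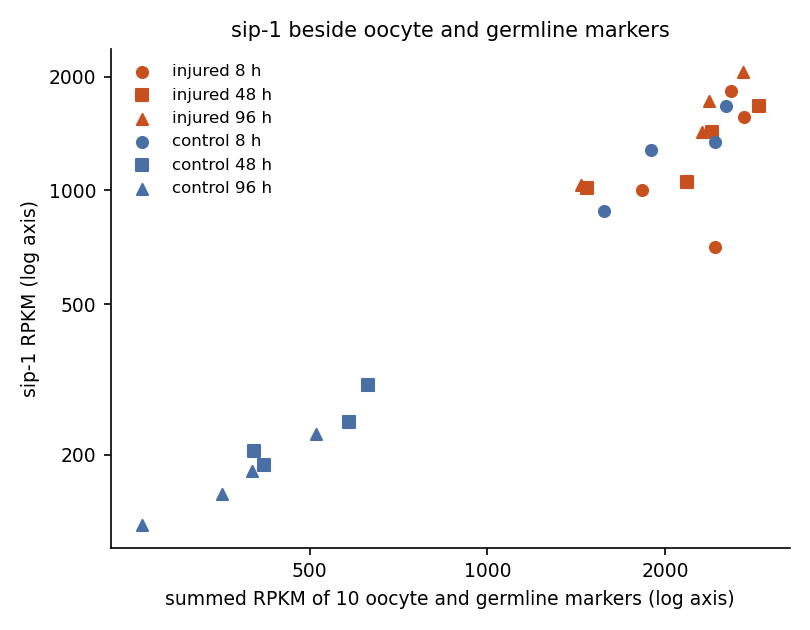
RPKM of sip-1 against the summed RPKM of 10 oocyte and germline markers, both on log axes, with each point 1 of the 24 libraries, coloured by treatment (injured in orange, control in blue) and shaped by time. The 8 controls of 48 and 96 h lie at the low end of both axes, with sip-1 at 306 RPKM or less, and the other 16 libraries lie at the high end, with sip-1 at 708 RPKM or more.

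Ordered by group mean, hsp-16.11 was lowest in controls at 8 h (123 ± 14.4 RPKM), then in controls at 48 h (568 ± 192), controls at 96 h (829.8 ± 54.7), injured worms at 48 h (872 ± 328) and injured worms at 8 h (1215 ± 404), and highest in injured worms at 96 h (4828 ± 1077; SD, n = 4 each). The 4 groups in the middle overlapped with their neighbours, and the lowest and highest groups stood apart from all others. Of the 9 tested members, hsp-12.6 had the lowest mean in controls at 8 h (1.25 ± 0.744 RPKM) and sip-1 the highest (1295 ± 325). In injured worms at 96 h hsp-12.3 was lowest (62.5 ± 4.67 RPKM) and hsp-16.11 highest.

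Of 7 further family members, 1 was higher and none lower in injured worms at 8 h, 1 higher and 2 lower at 48 h, and none higher and 2 lower at 96 h. Of all features tested, 11.0% were higher and 11.4% lower at 8 h, 45.8% and 10.2% at 48 h, and 32.8% and 28.4% at 96 h. The counts at 8 h, and the lower calls at 96 h, were near these shares. For 96 against 8 h the injury effect was smaller for 4 of the 7 and larger for none (all features, 20.1% and 23.6%). At 8, 48 and 96 h their log2 differences had medians of 0.31, -0.0044 and -0.32, beside medians over all features of -0.02, 0.48 and 0.07. The medians of the 9 tested members were 3.11, 0.58 and 2.29 at the same times. hsp-17, another small heat shock protein, averaged 120.4 RPKM in injured worms and 56.7 in controls at 8 h (log2 difference 1.05, limma adjusted p = 5.11e-04), 115 and 90.7 at 48 h (0.38, 0.150), and 154 and 177 at 96 h (-0.21, 0.421). hsp-12.2, a close relative of hsp-12.3, was lower in injured worms at 96 h, with 23.7 RPKM against 53.9 in controls (log2 difference -1.17, limma adjusted p = 1.89e-05), while hsp-12.3 was higher. At 8 and 48 h hsp-12.2 differed by 0.51 and -0.51 (limma adjusted p = 0.0893 and 0.0436).

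Among the 7 regulators listed around HSF-1, none passed the test at 8 h, where 11.0% of all features were higher and 11.4% lower. With 7 genes this is near those shares. hsf-1 itself, the heat shock factor, averaged 39.2 RPKM in injured worms and 37.2 in controls at 8 h (log2 difference 0.06, limma adjusted p = 0.893), 53.2 and 27.1 at 48 h (1.00, 7.05e-05), and 56.2 and 31.8 at 96 h (0.81, 7.24e-04). Of the 7, 5 were higher in the 48 h comparison (all features, 45.8%), and 3 were higher and 1 lower in that of 96 h (all features, 32.8% and 28.4%). The 96 h counts were near the background. ddl-1, which encodes an inhibitor of HSF-1, differed by 0.29 at 8 h, 1.34 at 48 h and 1.27 at 96 h (limma adjusted p = 0.395, 4.44e-06 and 8.12e-06). hsb-1, whose product binds HSF-1 and holds it inactive, differed by -0.13 at 8 h, 0.57 at 48 h and 0.09 at 96 h (limma adjusted p = 0.728, 0.0198 and 0.729). It was called higher at 48 h only, by a difference close to the 0.48 median shift of all features. daf-16 differed by -0.11, 0.38 and -0.31 at these times (limma adjusted p = 0.767, 0.0940 and 0.166). pqm-1, a transcription factor that acts opposite to DAF-16, differed by 0.41, 0.44 and -0.93 (limma adjusted p = 0.205, 0.0919 and 5.42e-04).

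The HSP70 and HSP90 machinery refolds what small heat shock proteins hold. Of its 11 listed genes, cochaperones included, 6 were higher at 8 h, 8 at 48 h and 11 at 96 h, and none was lower. Of all features, 11.0, 45.8 and 32.8% were higher at these times. The median log2 differences of the list were 0.63, 0.68 and 1.05. hsp-70, an inducible HSP70 gene, averaged 52.9 RPKM in injured worms and 4.03 in controls at 8 h (log2 difference 3.54, limma adjusted p = 2.92e-14), 28.03 and 28.3 at 48 h (-0.0038, 0.991), and 200.3 and 46.4 at 96 h (2.06, 2.50e-09). F44E5.4 and F44E5.5, a near-identical inducible pair of the same class whose reads the counting could split, differed by 3.83 and 3.88 at 8 h, 0.28 and 0.59 at 48 h, and 2.68 and 2.70 at 96 h. hsp-1, the constitutive HSC70 gene, was higher by 0.84, 0.60 and 0.56 at the 3 times (limma adjusted p = 6.91e-04, 0.00571 and 0.00873). Its 48 h difference was close to the 0.48 median shift of all features. The 8 subunits of the CCT chaperonin, which folds actin and tubulin, did not pass the test at 8 h (all features, 11.0% higher and 11.4% lower). At 48 h and at 96 h 8 of 8 were higher (all features, 45.8% and 32.8%). Their median log2 differences were 0.37, 0.99 and 0.99 at 8, 48 and 96 h, beside -0.02, 0.48 and 0.07 over all features. cct-5 averaged 281 RPKM in injured worms and 214 in controls at 8 h, and 604 and 268 at 96 h (log2 difference 1.17, limma adjusted p = 1.84e-06). cct-2, cct-4 and cct-6 differed by 1.17, 1.06 and 0.94 at 96 h.

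Likeness of pattern was described by Pearson's r of log2(RPKM + 0.5) over the 24 libraries, which share their groups and depths. hsp-16.1, near 0 throughout, had r of 0.62 to 0.64 with the other 5 HSP16 genes. Among the other members r was 0.99 between hsp-16.2 and hsp-16.41, 0.96 between hsp-16.2 and hsp-16.11, 0.83 between hsp-12.3 and hsp-12.6, 0.89 between hsp-16.11 and hsp-12.6, 0.44 between hsp-16.11 and hsp-43, and 0.13 between hsp-16.11 and sip-1. The 5 genes outside the members most like the mean of the HSP16 genes were hsp-70 (0.99), F44E5.4 (0.96), F44E5.5 (0.96), pqn-29 (0.95) and T05F1.9 (0.94). The 5 most like sip-1 were sun-1, which encodes a nuclear envelope protein of meiosis, DY3.8, Y110A2AR.1, trcs-1 and a feature whose symbol had been turned into a date in the table, with r of 0.99 or above. sun-1 averaged 54.7 RPKM in injured worms and 8.998 in controls at 96 h, and trcs-1 averaged 277 and 45.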

How the data were processed

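Poly(A) RNA of whole worms was sequenced in 24 libraries, 4 in each of 6 groups taken from the labels. The authors mapped the reads to ce11 by means of CLC Genomics Workbench, and the deposited values are RPKM that were not scaled between libraries. Another 6 columns of the table hold the authors' p-values and adjusted p-values for injured against control worms, which were not used. The annotation release, mapping settings and strand setting are not given in the sources used here. The columns carry a time and a treatment but no replicate number.

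Values were analysed as log2(RPKM + 0.5), so fold changes of low genes are understated, for the 14813 of 46739 features with at least 1 RPKM in at least 4 libraries. A mean per group was fitted to all 24 libraries with limma 3.58.1 in R 4.3.3 (trend and robust settings), without covariates, and gave 7 two-sided comparisons. Benjamini-Hochberg adjustment ran over all features of a comparison, with a threshold of 0.05. In data simulated for the 8 h comparison over 14813 features, 59% of genes changed by a log2 of 1 and 97% of those changed by 2 were recovered. The simulation drew independent noise for each value, changed few genes and held no library-wide shift. These rates describe that setting only, not the real libraries. hsp-16.1, under the filter, was tested by exact permutation. Depth was estimated as the total that turned the largest share of low values into whole reads (tolerance 0.1 read). Ribosomal RNA shares used gene names that start with rrn.

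The members and gene lists were chosen with earlier results of these data known. From each list holding no member and marking no cell type, up to 4 genes with the smallest p at 8 h were named, and hsf-1 always. Likeness named the 5 highest r. Alternatives were a pseudocount of 0.1 or 1, no filter, median-of-ratios scaling, a fit of 2 groups only, array quality weights, summed copy pairs, leaving out libraries over 5% ribosomal RNA, and leaving out each library. Coordinates and gene names came from annotation of ce11 in 1-based numbering. RPKM tables carry no counts, so no count model was run. Tables and plots were made with Python 3.11.15.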

Additional observations from a re-analysis of the deposited data

Results flagged for a closer look

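Within groups of 4 libraries, 2 of the 54 sets of member values had 1 library far from the other 3, where chance alone gives about 1 in 20. hsp-16.11 was lowest in control 96 h library 1, at 748.65 RPKM, against 846 to 863 in the other 3. hsp-12.6 was highest in control 96 h library 4, at 20.9 RPKM, against 15.4 to 16.0 in the other 3.

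The injury effect differed between times, by the limma test of the difference itself, for 8 members in 12 comparisons. Between 8 and 48 h it differed by -2.63 on the log2 scale for hsp-16.11, -3.18 for hsp-16.2, -3.54 for hsp-16.41, -2.53 for hsp-16.48, -2.58 for hsp-16.49, -0.79 for hsp-43 and 2.53 for sip-1. Between 8 and 96 h it differed by -1.37 for hsp-16.2, -1.48 for hsp-16.41, -1.87 for hsp-43, 0.92 for hsp-12.3 and 3.22 for sip-1. Of these, the 48 h value of hsp-43 and the 96 h value of hsp-12.3 lost the threshold in 19 and 11 of the 24 fits without 1 library.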

How the results depend on the processing

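Of 66 results for single genes, 44 kept their sign and their side of the threshold under every alternative run (for hsp-16.1, the other pseudocounts only). Among them are the HSP16 rises at 8 and 96 h and in controls, and the sip-1 and hsp-12.6 differences at 96 h. Counts of members higher at 48 h were 2 after scaling and 2 without the libraries over 5% ribosomal RNA, against 4, and counts lower were 2 after scaling and 1 with array weights, against 0. For 96 against 8 h, 1 member had a larger effect without the filter, with array weights and without the libraries over 5% ribosomal RNA, against 2, and 5 after scaling and 6 in both of the latter settings had a smaller one, against 3. Leaving out 1 library gave 2 to 7 members higher at 48 h, 0 to 1 lower at 96 h, and 1 to 2 with a larger effect at 96 h than at 8 h.

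The sign changed in these cases, in none of which the main value had passed the threshold. After scaling, the log2 difference was -0.51 for hsp-16.2 and -0.0307 for hsp-43 at 48 h, and, for 48 against 8 h, -0.52 for hsp-12.3 and -0.22 for hsp-12.6. With array weights it was 0.13 for sip-1 at 8 h, -0.31 for hsp-16.2 at 48 h, -0.52 and -0.85 for hsp-12.3 and hsp-12.6 in 48 against 8 h, -0.34 for hsp-12.6 in 96 against 8 h, and 0.0694 for hsp-12.3 in controls at 48 h. Without the libraries over 5% ribosomal RNA the same results, sip-1 apart, were -0.43, -0.53, -1.21, -0.77 and 0.14. A pseudocount of 0.1 gave -0.17 for hsp-12.6 in 96 against 8 h. Leaving out 1 library gave ranges of -0.29 to 0.17 for sip-1 at 8 h, -0.26 to 0.20 for hsp-16.2 and -0.34 to 0.16 for hsp-16.41 at 48 h, -0.25 to 0.29 for hsp-12.3 and -0.0364 to 0.62 for hsp-12.6 in 48 against 8 h, -0.17 to 0.46 for hsp-12.6 in 96 against 8 h, and, in controls at 48 h, -0.48 to 0.0561 for hsp-12.3 and -0.0254 to 0.38 for hsp-43. The causes were not tested.

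No paired analysis was possible because the columns carry no replicate numbers. RPKM values without read numbers limit the precision of genes near 1 RPKM, such as hsp-12.6 in 8 h controls, and the shared reads of the copy pairs limit what can be said of hsp-16.1, hsp-16.11, hsp-16.48 or hsp-16.49 alone.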
